A study of Mus musculus with 3 samples.

Results

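The 37 genes encoded by the mouse mitochondrial genome were followed in RNA sequencing of regulatory T cells: 13 protein-coding genes, 2 ribosomal RNA genes and 22 transfer RNA genes, out of 55536 genes in the estimated count tables. They are every gene that GENCODE release M21 places on chromosome M of the mm10 assembly, so no measured value decided which genes belong. The set itself was chosen with earlier results of these data known. The study's second kind of table, with whole-number counts on the older GENCODE release M4, listed 13 of them, the coding genes, among 22457 genes. All samples formed 1 group: regulatory T cells that had experienced inflammation, taken as primary cells from a male adult mouse of 6 months of the strain Foxp3CreERT2 x Rosa26YFP. In such a strain a drug-inducible Cre recombinase is made from the Foxp3 gene and a YFP reporter stands in the Rosa26 locus, so that cells expressing Foxp3 can be marked. No source used here gives the agent that caused the inflammation, the marking schedule or the cell sort. The labels name 1 biological replicate and 3 technical replicates, called libraries 1, 2 and 3 here by the label's number. Each was sequenced after selection for poly(A) RNA, with shearing and a size range of 100 to 300 bp. There was no control group, so every comparison below is between genes, between libraries or between the tables. Every p-value sets the differences between these 3 libraries against counting error only, with the error of the estimated counts added where stated.

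The mitochondrial genome is transcribed from both strands as long precursor RNAs, from which the tRNAs are cut out and the rRNAs and mRNAs released. Its mRNAs encode core subunits of respiratory Complexes I, III and IV and of the ATP synthase, Complex V, and every other protein of the organelle comes from nuclear genes. Most mitochondrial mRNAs carry short poly(A) tails, which also complete the stop codon where a gene ends in an incomplete one. Fragments of the mitochondrial genome have been copied into the nuclear genome during evolution, and some of these copies are annotated as pseudogenes.

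Several features of the sequence bear on the values. Of the 13 coding genes, 3 end in a single T after the last whole codon and 10 end in TAA or TAG. The last 30 bases are given for those 3 and, for comparison, for mt-Nd1 and mt-Co2, read 5′ to 3′ from the GENCODE M21 transcripts of mm10, with the stop codon or its first base in capitals:
mt-Co3, chrM:9361-9390, plus strand: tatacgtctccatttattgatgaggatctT
mt-Nd4, chrM:11515-11544, plus strand: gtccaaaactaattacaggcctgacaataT
mt-Cytb, chrM:15259-15288, plus strand: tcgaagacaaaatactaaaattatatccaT
mt-Nd1, chrM:3678-3707, plus strand: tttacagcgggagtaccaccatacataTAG
mt-Co2, chrM:7667-7696, plus strand: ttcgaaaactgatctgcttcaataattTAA

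Pairs of genes overlap on 1 strand. The first 43 bases of mt-Atp6 are the last 43 of mt-Atp8, and the first 7 of mt-Nd4 are the last 7 of mt-Nd4l. The shared bases, in capitals, belong to both genes, and both stretches are shorter than the windows of 50 bases used below:
mt-Atp6 start, chrM:7927-7986, plus strand: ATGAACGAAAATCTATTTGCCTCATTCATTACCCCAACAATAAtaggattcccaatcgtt
mt-Nd4 start, chrM:10167-10196, plus strand: ATGCTAAaaattattcttccctcactaatg

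Some genes also recur in the nucleus. The start of mt-Co2, which encodes a catalytic subunit of Complex IV, is shown beside the same stretch of 2 nuclear pseudogenes: over 90 bases Gm28661 on chromosome 1 had 0 differences from it and Gm13341 on chromosome 2 had 2, at the positions in capitals:
mt-Co2, chrM:7013-7102, plus strand: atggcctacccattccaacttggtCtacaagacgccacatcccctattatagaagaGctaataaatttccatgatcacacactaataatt
Gm28661, chr1:24615476-24615565, minus strand: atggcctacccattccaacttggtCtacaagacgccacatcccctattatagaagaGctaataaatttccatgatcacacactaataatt
Gm13341, chr2:22587873-22587962, minus strand: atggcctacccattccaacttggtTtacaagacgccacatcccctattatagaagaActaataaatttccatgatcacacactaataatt

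The libraries held 11829501, 14136139 and 10667765 estimated counts on genes. They stood apart in genes of other cell types, although the labels call them technical replicates. The 10 regulatory T and T cell markers were all present at 1 TPM (transcript abundance per length, on a scale that sums to the same total in each library) or more in every library and summed to 10427 to 11067 TPM. Markers of B cells (6 of 10 present in all libraries) summed to 469, 724 and 911 TPM in libraries 1, 2 and 3, those of plasma cells (2 of 8) to 43.6, 65.9 and 94.5 TPM, and those of erythroid cells (3 of 7) to 4.83, 51.2 and 287 TPM. Myeloid markers (2 of 10) summed to 10.1, 62.0 and 26.8 TPM and markers of CD8 T and NK cells (5 of 10) to 49.7, 93.2 and 58.8 TPM; no marker of these lists was at 0 in all libraries. The order of the B cell sum came with 1 gene, the immunoglobulin light chain gene Igkc, at 45.3, 308 and 405 TPM: without it the sum was 423, 416 and 506 TPM, and the heavy chain gene Ighm was at 395, 353 and 426 TPM. Of the plasma cell list, Jchain was at 0.99, 19.5 and 22.3 TPM and Xbp1, which other cells also use, at 38.9, 35.8 and 30.3 TPM. The globin gene Hbb-bs was at 1.13, 17.9 and 108 TPM.

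The mitochondrial genes took 2.37%, 2.51% and 2.68% of the gene counts in libraries 1, 2 and 3 (280898, 355326 and 286359 counts; 95% Wilson intervals of 2.37 to 2.38%, 2.51 to 2.52% and 2.67 to 2.69%, which cover counting error only), a mean of 2.52% ± 0.155 (SD, n = 3 technical libraries). The share was lowest in library 1 and highest in library 3, and the intervals did not overlap. The sums of the B cell, plasma cell and erythroid markers had the same order, that of the B cell markers only with Igkc; their part in the difference was not tested. In bulk RNA, a change in the number of cells of a type cannot be told apart from a change in RNA per cell. Within the mitochondrial counts, 68.2%, 69.8% and 67.8% fell on coding genes and 31.4%, 29.9% and 31.9% on rRNAs. The tRNAs took 0.349%, 0.335% and 0.335%.

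By level per length, the coding genes differed by more than an order of magnitude among themselves, and 6 of them were among the 50 genes with the highest mean TPM of the whole table. All 13 were among the top 500. Each gene's length less 49 was the number of positions at which the authors' table let a fragment start, and TPM is the estimated count per such position, scaled to a fixed total.

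Complex IV, cytochrome c oxidase, which passes electrons to oxygen, had the largest part of the coding counts, 51.0% ± 1.31 (SD, n = 3 technical libraries), with 3 genes. mt-Co3 (chrM:8607-9390, plus strand), which encodes a core subunit without metal centres, had 5153, 6081 and 5405 TPM in libraries 1, 2 and 3, a mean of 5546 ± 480 (SD), rank 9 of all genes. mt-Co1 (chrM:5328-6872, plus strand), the subunit that holds the oxygen-binding site, had 3509, 3494 and 3573 TPM, with the narrowest relative spread of the coding genes. mt-Co2 (chrM:7013-7696, plus strand), the subunit that accepts electrons from cytochrome c, had 2835, 3362 and 3572 TPM, and its values overlapped with those of mt-Co1.

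Complex V, the ATP synthase, was represented by the 2 overlapping genes of its membrane part, with 15.7% ± 0.255 of the coding counts. mt-Atp6 (chrM:7927-8607, plus strand), which forms the proton path, had 4332, 4548 and 4623 TPM. mt-Atp8 (chrM:7766-7969, plus strand), a small membrane subunit, had 4205, 4366 and 4557 TPM. The level of mt-Atp8 was 0.972 ± 0.0129 (SD, n = 3 technical libraries) times that of mt-Atp6. With the counts of the nuclear copies described below added, it was 0.562 ± 0.00974 times, so the near equality depended on where shared reads were placed.

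Complex III, which passes electrons from ubiquinol to cytochrome c, has 1 mitochondrial gene, mt-Cytb (chrM:14145-15288, plus strand), its cytochrome b. It had 2541, 2626 and 2962 TPM, a mean of 2710 ± 223 (SD), and held 13.2% ± 0.606 of the coding counts. In each library it lay below the 3 genes of Complex IV and above the 7 of Complex I.

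Complex I, NADH dehydrogenase, took 20.1% ± 0.840 of the coding counts with 7 genes, all of them parts of its membrane arm. The highest was mt-Nd1 (chrM:2751-3707, plus strand), near the ubiquinone site, with 1371, 1477 and 1641 TPM, rank 91 of all genes. The proton-pumping subunits mt-Nd4 (chrM:10167-11544), mt-Nd5 (chrM:11742-13565) and mt-Nd2 (chrM:3914-4951), all on the plus strand, had means of 820 ± 54.5, 634 ± 64.4 and 517 ± 34.3 TPM (SD, n = 3 technical libraries). The lowest were mt-Nd6 (chrM:13552-14070), the only coding gene on the minus strand, with 386, 431 and 471 TPM, mt-Nd4l (chrM:9877-10173) with 377, 404 and 425 TPM, and mt-Nd3 (chrM:9459-9806) with 309, 370 and 434 TPM.

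The values of those 3 genes overlapped, and the rest of Complex I was ordered mt-Nd1, mt-Nd4, mt-Nd5, mt-Nd2 in every library. mt-Nd4l and mt-Nd4 overlap by 7 bases and had unequal levels, with a ratio of 0.490 ± 0.0158. mt-Nd5 and mt-Nd6, which overlap by 14 bases on opposite strands, had a ratio of 1.48 ± 0.0317. No source used here gives the use of strand in the counting, so reads of mt-Nd6 cannot be told apart from reads of plus-strand RNA over it.

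Both rRNAs were counted in these libraries of poly(A)-selected RNA. mt-Rnr2 (chrM:1094-2675, plus strand), the RNA of the large subunit of the mitochondrial ribosome, had 5677, 5644 and 6415 TPM, the highest mean of the coding and rRNA genes (5912 ± 436, SD). mt-Rnr1 (chrM:70-1024, plus strand), the RNA of the small subunit, had 1160, 1188 and 1293 TPM. The level of mt-Rnr2 was 4.87 ± 0.107 times that of mt-Rnr1. A mature ribosome holds both in equal number. Ordered by mean level, the 15 coding and rRNA genes formed 14 neighbouring pairs, of which 6 overlapped in their library values and 12 had the same order in all libraries.

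**Figure D1:**
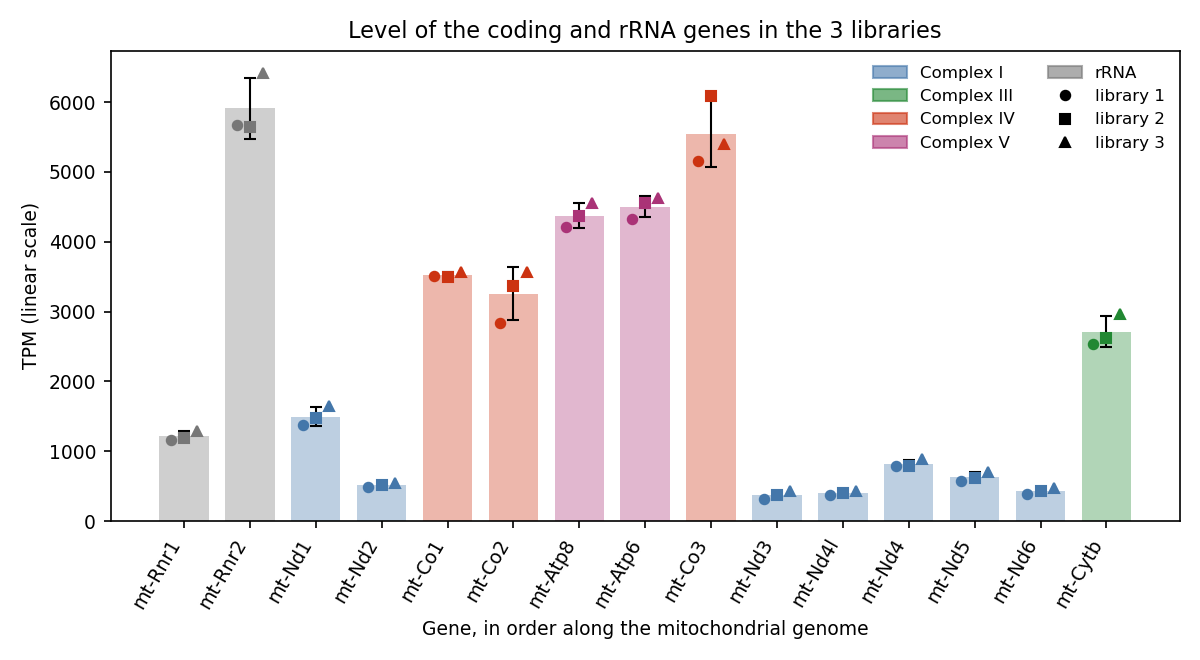
Level in TPM (linear axis) of the 13 coding and 2 rRNA genes, in order along the mitochondrial genome; bars are means, error bars the SD over 3 technical libraries, and points the libraries. The genes of Complexes IV and V and mt-Cytb lie at 2541 TPM or more in every library, and those of Complex I at 1641 TPM or less.

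The nuclear-encoded subunits of each complex had a lower median per length than their mitochondrial partners. The 37 nuclear subunits of Complex I had a median of 181 ± 5.11 TPM (SD of the library medians) against 517 ± 34.3 for the mitochondrial 7, and the 11 of Complex IV had 423 ± 5.57 against 3525 ± 42.3 for the mitochondrial 3. For Complex V the medians were 369 ± 23.9 over 17 nuclear genes and 4439 ± 161 over 2 mitochondrial genes. The 9 nuclear subunits of Complex III had a median of 262 ± 11.3 TPM against 2710 ± 223 for mt-Cytb. The highest nuclear subunits, Cox4i1 (895 ± 13.8 TPM) of Complex IV and Uqcrh (661 ± 19.8 TPM) of Complex III, lay within the range of the Complex I mitochondrial genes, and Ndufa3 of Complex I itself (605 ± 13.4 TPM) lay above the means of mt-Nd2, mt-Nd6, mt-Nd4l and mt-Nd3. Complex II, which has no mitochondrial gene, had a median of 195 ± 11.7 TPM over 4 subunits.

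The 22 tRNA genes were nearly without counts, with 1 exception. mt-Tf was at 0 in all libraries, which allows up to 0.217 to 0.272 CPM, a count relative to the TMM-scaled library size, by the limit of 3 counts, and 17 tRNAs had counts in every library. The 14 on the plus strand summed to 53, 59 and 53 counts and the 8 on the minus strand to 927, 1130 and 906. mt-Ts1, a serine tRNA, alone had 776, 952 and 753 counts, which was 79.2%, 80.1% and 78.5% of all tRNA counts. Next came mt-Te (61, 76 and 65 counts), mt-Tn (24, 25 and 18), mt-Tc (19, 20 and 17), mt-Ty (16, 20 and 17) and mt-Tq (12, 19 and 18), all on the minus strand. No other tRNA had more than 15 counts in a library, the value of mt-Tl1 in libraries 2 and 3.

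mt-Ts1 lies directly behind mt-Co1 and in the opposite direction, and its last 3 bases are the complement of the stop codon of mt-Co1 (capitals):
mt-Ts1, chrM:6870-6938, minus strand: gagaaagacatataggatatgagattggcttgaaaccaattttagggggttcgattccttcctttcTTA

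In mammals the mature mt-Co1 mRNA is known to run on through the antisense of this tRNA. Without the strand, reads of mt-Ts1 and of an extended mt-Co1 RNA cannot be told apart. Per start position the level of mt-Ts1 was 1.25 ± 0.0239 (SD, n = 3 technical libraries) times that of mt-Co1. The levels lay closer with the counts of the nuclear copies described below added to mt-Co1. Counts per 1000 start positions were then 38800, 47600 and 37650 for mt-Ts1 and 37588, 45399 and 36110 for mt-Co1 in libraries 1, 2 and 3. mt-Te lies directly upstream of mt-Nd6 on the same strand, and its level was 0.837 ± 0.0328 times that of mt-Nd6. The tRNAs are 59 to 75 bases long and so offered 10 to 26 start positions, which makes their TPM large for few counts: mt-Ts1 reached a mean of 4393 TPM from a mean of 827 counts. Of the 8 tRNAs that averaged 10 counts or more, 0 differed between libraries by the chi-square test described next, where 45.7% of all genes tested did. None had an unadjusted p under 0.05. Apart from mt-Ts1 they averaged 10 to 67.3 counts, at which the test finds only large differences. For mt-Tq the ratio of the highest to the lowest library was 1.61 (adjusted p = 0.533 by the chi-square test).

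**Figure D2:**
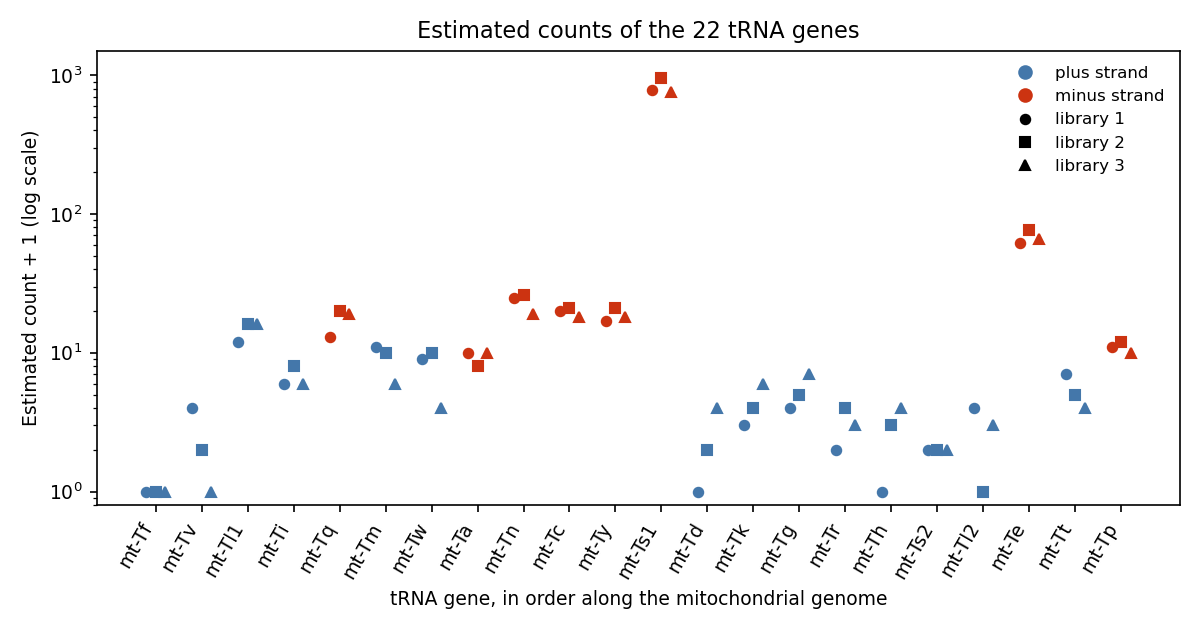
Estimated count plus 1 (log axis) of the 22 tRNA genes in order along the mitochondrial genome, by strand (colour) and library (symbol). mt-Ts1 stands at 753 counts or more in each library and the other 21 genes lie at 76 counts or fewer.

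Differences between the libraries were tested gene by gene with a Poisson chi-square test over the 13970 genes whose estimated counts averaged 10 or more, after scaling the libraries by TMM (edgeR), with Benjamini-Hochberg adjustment and a threshold of 0.05. Of the 23 mitochondrial genes tested, 14 differed between the libraries, where 45.7% of all genes tested did. They were 12 of the 13 coding genes and both rRNAs, all but mt-Nd4l (adjusted p = 0.10 by the chi-square test). Among the 2585 genes averaging 1000 counts or more, where the test finds smaller differences, 71.6% differed. The differences of the mitochondrial genes were small. The ratio of the highest to the lowest library had a median of 1.14 over the coding genes (range 1.02 to 1.38), against 1.26 over all genes tested and 1.14 over the 2585 genes averaging 1000 counts or more.

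Library 1 was the lowest for most of them. Of the coding genes, 12 of 13 had their lowest scaled count in library 1, and 11 of those passed the test, where 13.5% of all genes tested passed and were lowest there. Of the 2585 genes averaging 1000 counts or more, 444 passed and were lowest there. Under each of 5 other scalings of the estimated counts (total counts, DESeq2 size factors, TMM on nuclear genes, TMM on all genes, and TPM), 12 or 13 of the 13 were lowest in library 1. The highest library depended on the scaling: 9 of 13 coding genes were highest in library 3, 8 of them past the test (16.2% of all genes tested), but 12 were under total counts and TPM and 6 under DESeq2 size factors and TMM on all genes. The other 4 genes called were highest in library 2, where 15.5% of all genes tested passed and were highest.

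For 8 genes, under 10% of 50-base windows recurred in an annotated nuclear transcript, as described below. Among these 8 the scaled counts followed the order of the mitochondrial share in all but mt-Atp8. mt-Cytb had 2137, 2271 and 2445 CPM in libraries 1, 2 and 3 (adjusted p = 1.16e-50), mt-Nd5 had 788, 871 and 943 (adjusted p = 1.6e-33) and mt-Nd1 had 956, 1059 and 1123 (adjusted p = 5.66e-33). mt-Nd6 had 139, 160 and 167 CPM (adjusted p = 1.83e-06) and mt-Nd2 had 366, 406 and 410 (adjusted p = 1.52e-07). The rRNAs had the same order, with 6683, 6835 and 7415 CPM for mt-Rnr2 (adjusted p = 1.79e-104) and 807, 850 and 883 for mt-Rnr1 (adjusted p = 3.73e-08). mt-Nd4 (799, 834 and 884, adjusted p = 2.01e-10) did too. mt-Co1 differed least of the genes called, with 4031, 4128 and 4030 CPM (adjusted p = 0.000222). mt-Atp8 had 501, 535 and 533 CPM, lowest in library 1 and highest in library 2 (adjusted p = 0.000936).

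The 3 widest ranges among the coding genes were in genes with a near-complete nuclear copy. mt-Co3 had 2908, 3531 and 2995 CPM and was highest in library 2 (adjusted p = 1.56e-199), mt-Co2 had 1382, 1686 and 1710 (adjusted p = 2e-106), and mt-Nd3 had 70.9, 87.3 and 97.7, the ratio of 1.38 (adjusted p = 2.77e-10). These p-values count reads as if each belonged to its gene with certainty. The authors' table also gives the posterior standard deviation of each estimated count, a measure of how freely shared reads could have been placed. With its square added to the counting variance, 10 of the 23 mitochondrial genes passed, 8 of them coding, where 40.5% of all genes did. Of the 2585 genes averaging 1000 counts or more, 1757 did.

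The 4 coding genes lost were mt-Co2, mt-Atp6, mt-Co3 and mt-Nd3, with adjusted p of 0.139, 0.793, 0.127 and 0.628. All 4 had nearly complete nuclear copies. The 8 that passed included mt-Cytb, mt-Nd1, mt-Nd5 and mt-Nd6, whose adjusted p were 1.38e-50, 6.6e-33, 1.89e-33 and 2.09e-06 with the posterior error.

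**Figure D3:**
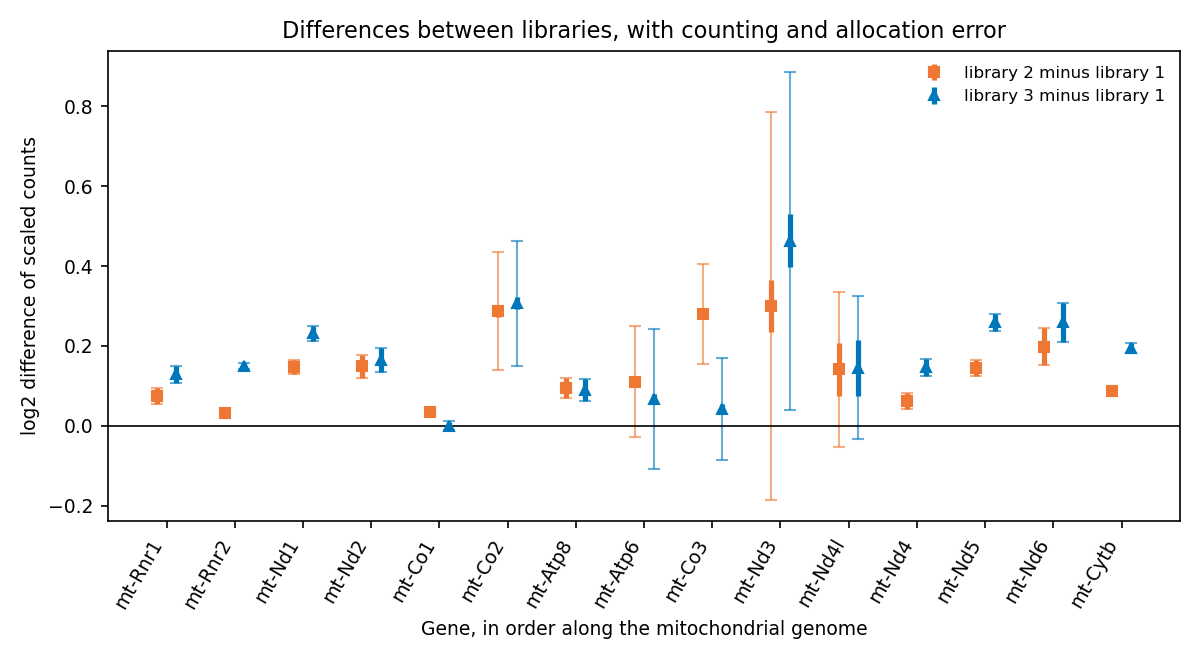
log2 difference of TMM-scaled counts from library 1 for libraries 2 and 3, by gene in order along the mitochondrial genome; thick bars are 1 SD of counting error and thin bars 1 SD of counting and posterior error together. The thin bars are wide for mt-Co2, mt-Atp6, mt-Co3, mt-Nd3 and mt-Nd4l and hardly visible beyond the thick bars elsewhere.

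In the estimated counts, the nuclear genes for the same complexes had their lowest values in another library than the mitochondrial genes. Of the 74 nuclear subunits of Complexes I, III, IV and V, 35 differed between libraries, a share of 47.3% close to the 45.7% of all genes tested. Of the 74, 59 were lowest in library 3, 33 of them past the test (19.5% of all genes tested), and 51 were highest in library 2. The number lowest in library 3 was 41 under total counts and 44 under TPM, and the number highest in library 2 was 28 and 23, with 36 highest in library 1 under TPM. Over all 13970 genes tested, 5204 were lowest in library 3 and 4509 highest in library 2 by the TMM-scaled counts. Of the 2585 genes averaging 1000 counts or more, 1467 were lowest in library 3, 1144 of them past the test, and 1077 were highest in library 2. A low library 3 was thus not particular to these subunits. The ATP synthase subunits Atp5b (424, 421 and 356 TPM, adjusted p = 6.9e-35) and Atp5a1 (291, 326 and 286 TPM, adjusted p = 1.58e-16) and the Complex IV subunits Cox6a1 (522, 512 and 442 TPM, adjusted p = 1.06e-10) and Cox5b (393, 382 and 322 TPM, adjusted p = 2.44e-08) were each lowest in library 3. In Complex I, Ndufb9 (226, 232 and 194 TPM, adjusted p = 2.79e-07) was lowest in library 3 too.

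Most genes of the machinery that makes and reads mitochondrial RNA did not pass the test, which was also so for most of all genes tested. Of 20 genes for transcription and replication of the mitochondrial genome, 3 differed. The packaging and transcription factor Tfam was at 78.6, 79.8 and 72.5 TPM (adjusted p = 0.155), and the RNA polymerase Polrmt at 12.7, 8.45 and 7.63 TPM, highest in library 1 (adjusted p = 0.0147). Of 28 genes for RNA processing, stability and polyadenylation, 10 differed; Slirp, which binds and stabilises mitochondrial mRNAs, was at 103, 100 and 104 TPM (adjusted p = 0.594). Of the proteins of the mitochondrial ribosome, 18 of 48 of the large subunit and 5 of 31 of the small subunit differed, among them Mrpl18 (246, 249 and 228 TPM, adjusted p = 7.59e-11) and Mrps7 (32.7, 25.3 and 24.0 TPM, adjusted p = 0.00203). Of 29 translation factors and tRNA-charging enzymes 9 differed, and 1 of them, Lars2, the mitochondrial leucyl-tRNA synthetase, stood far above the rest at 1045, 1098 and 1034 TPM, while the elongation factor Tufm was at 56.0, 52.1 and 51.9 TPM. Over all these lists and the nuclear subunits, Complex II included, 83 of 234 genes differed, or 35.5% beside the 45.7% of all genes tested. Without library 3, 25 did, with no share over all genes at hand for that setting.

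Nuclear copies were sought among annotated genes outside chromosome M. A copy was a transcript that aligned to the mitochondrial genome at 90% identity or more over 50% or more of its length, and 16 were found. The copies took 44361, 47245 and 42686 estimated counts, or 11.7% to 13.6% of the counts of copies and mitochondrial genes together. Of these, 99.8%, 99.8% and 99.9% fell on 7 pseudogenes that follow each other at chr1:24611535-24616197 and match chrM:6390-11042, the stretch from within mt-Co1 to within mt-Nd4.

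Genes differed in how much of them could be told from a copy. Of all windows of 50 bases, the length of fragment that the tables' effective lengths allow for, 100% of those in mt-Co2 recurred exactly in a nuclear transcript, 99.9% in mt-Co3, 99.5% in mt-Atp6, 98.8% in mt-Nd4l and 98.0% in mt-Nd3. The share was 62.2% in mt-Nd4 and 51.1% in mt-Co1. It was 8.19% in mt-Nd2, 7.61% in mt-Nd5, 1.04% in mt-Rnr2 and 0% in mt-Nd1, mt-Nd6, mt-Cytb, mt-Rnr1, mt-Atp8 and every tRNA. The 5 genes of 98.0% or more were also the only coding and rRNA genes whose posterior standard deviation exceeded 5% of the estimated count in any library: 6.13 to 8.11% for mt-Co2, 6.05 to 6.29% for mt-Co3, 6.77 to 9.96% for mt-Atp6, 6.78 to 10.6% for mt-Nd4l and 17.3 to 23.9% for mt-Nd3.

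**Figure D4:**
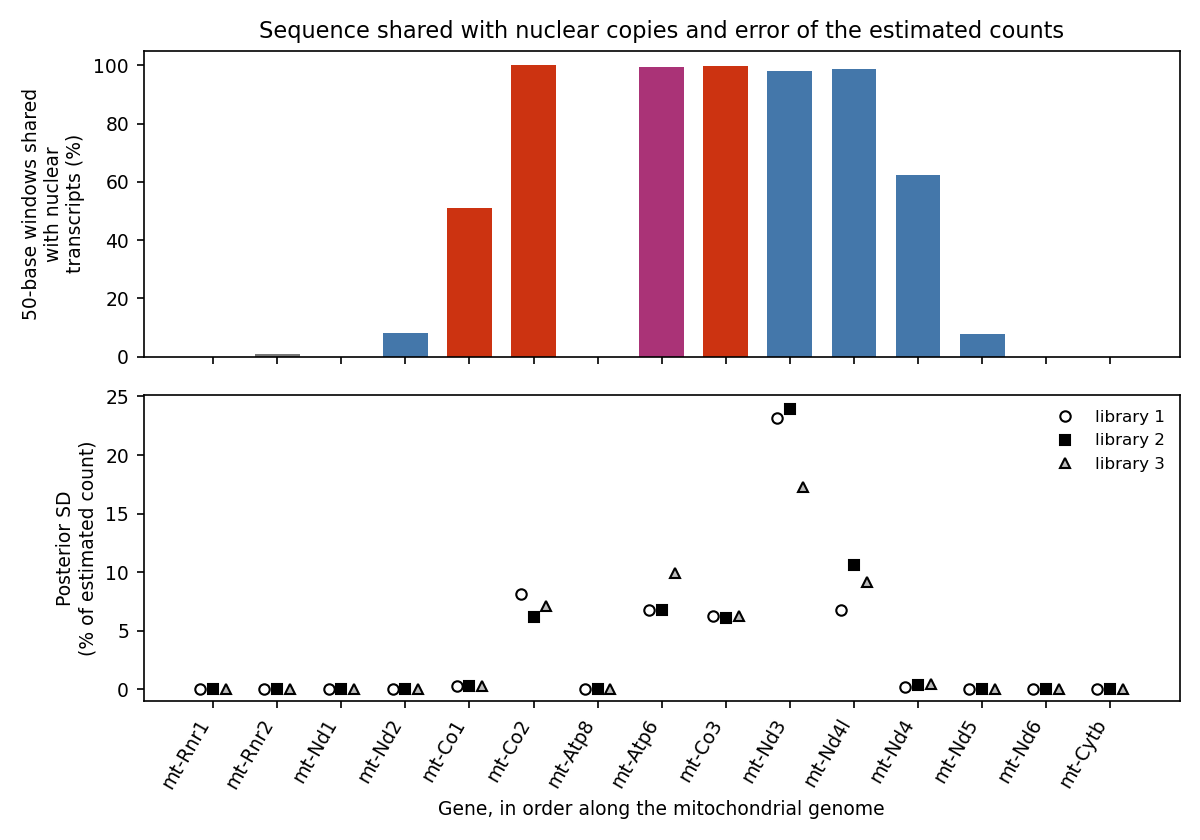
Upper panel, share of 50-base windows of each gene that recur exactly in a nuclear transcript (%, bars); lower panel, posterior standard deviation of the estimated count as a share of that count (%), with a point per library. The 5 genes at 98% or more in the upper panel are the 5 above 5% in the lower one.

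Shared reads were divided unevenly between genes and copies. Gm10925, a 678-base pseudogene identical to mt-Atp6, took 18007, 21391 and 19094 counts, 42.1%, 40.5% and 44.0% of the sum with mt-Atp6. Gm28437, identical to mt-Co3 over 783 bases, took 10021, 7566 and 9119 counts, and was lowest in library 2, where mt-Co3 was highest. Gm28661, identical to mt-Co2, took 6941, 6616 and 4328 counts, and was highest in library 1, where mt-Co2 was lowest.

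By contrast Gm10222, identical to mt-Nd4l, and Gm28439, identical to mt-Nd4 over 876 bases, took at most 1.06 and 0 counts in a library, so nearly all estimated counts of those stretches stood on the mitochondrial gene. For mt-Nd4l the posterior mean counts were lower than its estimated counts, 779, 900 and 774 against 846, 1095 and 874. Gm28438, next to mt-Nd3 in sequence with 99.7% identity, took 663, 821 and 486 counts. Gm13340 on chromosome 2, a copy of mt-Co1 at 97.6% identity, took 66.2, 64.4 and 40.3 counts. Of the copies on chromosome 1 named so far, 4 differed between libraries by the counting test alone, Gm10925, Gm28437, Gm28661 and Gm28438, and 0 did with the posterior error added (adjusted p of 0.785, 0.608, 0.596 and 0.868).

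Gm29216 was the exception. It matches mt-Co1 over 483 of its 492 bases at 99.8% identity and only 13 of its 443 windows of 50 bases were not found on a mitochondrial gene, yet it held 8639, 10751 and 9601 counts with posterior standard deviations of 139, 161 and 135. It differed between libraries under both error models (adjusted p = 9.01e-10 with the posterior error), and like most mitochondrial genes it was lowest in library 1 and highest in library 3.

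With each copy's counts added to its closest mitochondrial gene, the order of levels changed. Per start position, mt-Co3 then stood at 0.881 ± 0.0425 (SD, n = 3 technical libraries) of mt-Atp6, where it had stood at 1.23 ± 0.0917 without the copies. mt-Atp8 stood at 0.562 ± 0.00974 of mt-Atp6, in place of 0.972. Of the 13 coding genes, 5 kept their rank. The range of mt-Co3 between libraries narrowed to 3758, 4078 and 3823 CPM and that of mt-Co2 to 1973, 2166 and 2104, still lowest in library 1, and 14 mitochondrial genes passed the test as before.

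The whole-number tables showed another picture of the same libraries. The 13 coding genes took 0.379%, 0.348% and 0.419% of the whole-number counts there, which totalled 2988262, 3386154 and 2734873, so library 2 was lowest in place of library 1. mt-Co2, mt-Atp6 and mt-Atp8 were at 0 in all libraries, and mt-Co3 and mt-Nd4l had 1 count in 1 library each. mt-Nd3 had 16, 9 and 12 counts. They were the 5 genes with a near-complete nuclear copy and mt-Atp8, for which 0% of windows recurred in an annotated nuclear transcript and whose posterior standard deviation was 0. mt-Atp8 lies within chrM:6390-11042, the stretch spanned by the copies on chromosome 1. The copies nearest it, Gm28661 and Gm10925, lie at chr1:24614885-24615565 and chr1:24613974-24614651. They match chrM:7013-7693 and chrM:7927-8604 at 100% identity, so Gm10925 holds the last 43 bases of mt-Atp8, too few for a window of 50. Nuclear sequence between annotated transcripts was not searched, so a copy of the rest of mt-Atp8 there would have been missed.

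The counts of 4 other genes lay close to a number given by sequence. A gene's unshared windows give a number of distinct start positions, counted over both strands, and mt-Nd1 had 1804, 1832 and 1807 whole-number counts against 1816 such positions. mt-Cytb had 2214, 2234 and 2208 counts against 2190 positions and mt-Co1 had 1413, 1420 and 1411 against 1462. mt-Nd4 had 984, 1008 and 989 against 1004. For these 4 genes the count was 96.5% to 102% of the positions in every library, while their estimated counts in library 1 were 11272, 25190, 47526 and 9418 in the same order of genes.

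Genes of lower level fell short of it. mt-Nd5 had 2818, 2985 and 2882 counts against 3280 positions (85.9% to 91.0%), mt-Nd2 had 1365, 1500 and 1410 against 1816, and mt-Nd6 had 713, 798 and 730 against 940. Elsewhere such values were rare. Among 5726 genes off chromosome M with 100 or more whole-number counts in every library, the highest count had a median of 9.66% of the start positions on both strands and a 99th percentile of 74.8%, and 5 genes were above 100%.

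**Figure D5:**
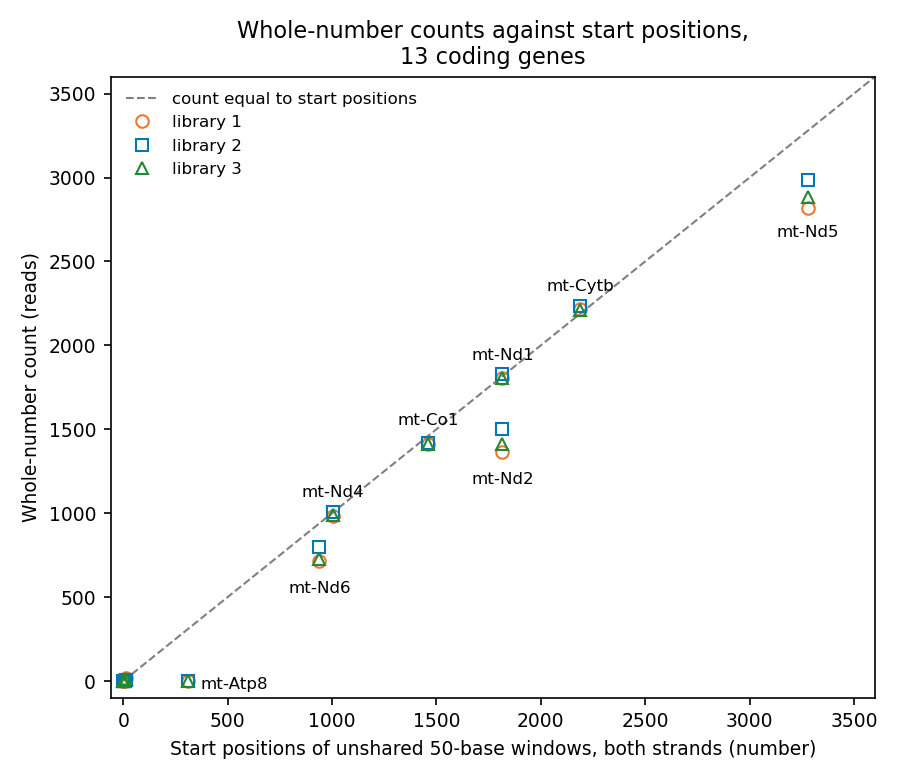
Whole-number count of each of the 13 coding genes in the 3 libraries against the number of start positions of unshared 50-base windows on both strands; the dashed line marks equality. mt-Nd1, mt-Co1, mt-Nd4 and mt-Cytb lie on the line, mt-Nd2, mt-Nd5 and mt-Nd6 below it, and mt-Atp8 at 0 counts.

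The test between libraries therefore carries little for these genes in the whole-number table. There, 8 coding genes averaged 10 counts or more and 6 of them passed the same chi-square test, where 21.5% of the 10013 genes tested did. All 8 had their lowest scaled count in library 2 and 7 their highest in library 3. Nearly constant counts divided by library size are lowest in the library with the largest total, library 2, and highest in that with the smallest, library 3, so for the genes near the number of start positions this order is that of the totals and is no measure of their level. Of the nuclear subunits of Complexes I, III, IV and V, 72 were tested in that table. Of these, 50 were lowest in library 2, 10 were lowest in library 3 and 38 were highest in library 3. The order seen in their estimated counts was thus not seen there. Of 9924 genes compared in the same way, 3049 were lowest in library 2, 3668 lowest in library 3 and 3508 highest in library 3.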

How the data were processed

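Poly(A) RNA sequencing of 3 technical libraries of 1 group was used. The authors deposited gene tables in the format of RSEM on mm10 with GENCODE M21, per the file headers, holding estimated counts (expected counts), TPM, posterior mean counts and the posterior standard deviation, an error signal of each count. The authors also deposited whole-number counts for the genes of GENCODE M4, per the file headers. No source used here gives the aligner, the read length or how reads were selected for them.

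The mitochondrial genes and the nuclear gene lists were chosen with earlier results of these data known. The estimated counts were rounded before testing. With 1 group, no test between groups was possible. A Poisson chi-square test of homogeneity across the libraries was run on genes averaging 10 counts or more, with library sizes scaled by TMM (edgeR 4.0.16, R 4.3.3; factors 0.9946, 0.9755 and 1.031), Benjamini-Hochberg adjustment over all genes tested and a threshold of 0.05, and was tested on simulated data. CPM are TMM-scaled, and ratios between libraries were computed from them.

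The transcripts of GENCODE M21 were aligned to the mitochondrial genome with blastn 2.17.0. Alternatives were other scalings (DESeq2 1.42.0 size factors among them), filters, the posterior error, the whole-number counts and leaving out each library; scaling to unshared genes, TMM on all genes and the test and the order of levels with copies added were chosen after seeing the data. Entries without a gene identifier were left out of totals. Named genes were every coding and rRNA gene, the 6 tRNAs and 6 copies with the most counts, and from each list genes among the 2 with the highest level and the 2 with the largest chi-square among those called; mt-Tf, mt-Tl1, Gm10222, Gm28439 and the shown Gm13341 were named after their values were seen.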

Additional observations from a re-analysis of the deposited data

Results flagged for a closer look

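Signal also appeared in entries that no comparison used. The entry of the phiX control genome held 32105, 31473 and 25900 estimated counts in libraries 1, 2 and 3, and the 26248 entries without a gene identifier held 1811.01, 1774.69 and 1905.26. Both are above the limit that a count of 0 allows, and no control samples were at hand to compare them with.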

How the results depend on the processing

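Of the mitochondrial genes, 14 passed the test between libraries and 9 to 15 did under the alternatives on the estimated counts. Scaling to the mitochondrial genes with no shared window left 9, and the whole-number counts gave 6, all coding, where the estimated counts gave 12 coding genes. Leaving out 1 library each gave 10 to 14 genes, 8 to 12 of them coding. Of the nuclear list genes, 83 passed; 12 did in the whole-number counts and 25 to 67 with 1 library left out, the fewest without library 3. The mean share of 2.52% became 4.16% of TPM, 0.382% in the whole-number counts, 2.89% with nuclear copies added and 1.74% without the rRNAs, and stayed at 2.4% with posterior mean counts. Of 13 coding genes, 4 kept their rank in CPM without length, 5 with copies added, 9 with posterior mean counts and 0 in the whole-number counts, and 13 with any 1 library left out. For mt-Co1, the log2 ratio of highest to lowest library (library 2 over 3) reversed to -0.0425 under total counts and -0.0326 by TPM. In the whole-number counts it was -0.292. There mt-Co1 lay near its number of start positions, so that value is no measure of its level. For mt-Nd3 the ratio (library 3 over 1) reversed to -0.315 in the whole-number counts, which were only 16, 9 and 12. The cause of the other reversals was not tested. The 3 libraries come from 1 biological replicate, so no value here measures variation between mice. No paired analysis was possible because there was only 1 group.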
